A study of Mus musculus with 3 samples.

Results

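The genes described here are 8 that code for receptors and bridging ligands of the engulfment of dying cells, synapses and debris. They were taken by name, with earlier results of these data known, and are 8 of the 31053 gene symbols in the count tables. The receptors are Mertk, Axl, Megf10 and the integrin subunits Itgav and Itgb5, and the ligands are Gas6, Pros1 and Mfge8. The tissue was the hippocampus of wild-type C57BL/6 mice, labelled 2-year-old, with no treatment and no younger or mutant group. Hippocampi were digested with papain, freed of myelin with beads and run as droplet single-cell RNA libraries that count unique molecular identifiers (UMIs) at the 3′ ends of transcripts. The 3 libraries form 1 group and are called replicates 1, 2 and 3; the title of replicate 3 gives an age of 25 months. The series' text mentions 6 hippocampi, and no label ties a library to particular animals, so the p-values below measure only the spread between these libraries.

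Dying cells and discarded synapses display phosphatidylserine, a lipid normally kept on the inner face of the membrane. Gas6 and protein S (Pros1) attach to it through vitamin K-dependent carboxylated domains and bind the TAM receptor tyrosine kinases (Tyro3, Axl and Mertk), while Mfge8 links it to the integrin made of the αv (Itgav) and β5 (Itgb5) subunits. Megf10 is an engulfment receptor known from astrocytes, where it acts with Mertk in the removal of synapses, and Mertk, Axl and αvβ5 are best known from macrophages, microglia and the retinal pigment epithelium.

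The promoters of Mertk and Mfge8 are shown because these 2 members passed the test as lower in Gfap-high than in Gfap-low astrocytes, as described further on. Each sequence is the 250 bases before the RefSeq transcript start on GRCm38.p6, chr2:128698665-128698914 on the plus strand for Mertk and chr7:79149061-79149310 on the minus strand for Mfge8, and capitals mark the GC box, GGGCGG or its reverse complement CCGCCC.
Mertk: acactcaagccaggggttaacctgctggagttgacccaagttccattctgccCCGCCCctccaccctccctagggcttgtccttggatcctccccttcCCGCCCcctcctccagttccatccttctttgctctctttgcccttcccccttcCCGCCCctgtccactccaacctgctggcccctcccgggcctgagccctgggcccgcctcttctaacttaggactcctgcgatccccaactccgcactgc
Mfge8: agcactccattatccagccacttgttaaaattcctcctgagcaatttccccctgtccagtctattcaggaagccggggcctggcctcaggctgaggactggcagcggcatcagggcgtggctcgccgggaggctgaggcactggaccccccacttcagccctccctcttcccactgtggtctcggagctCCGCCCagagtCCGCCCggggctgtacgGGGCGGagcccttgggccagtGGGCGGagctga
The windows held 3 GC boxes for Mertk and 4 for Mfge8. RefSeq promoter windows matched 7 of the 8 members, and 6 of these 7 held between 1 and 5 GC boxes, against 32.7% of all 32851 windows of the same length; Itgav had none. The ETS core GGAAGT or its reverse ACTTCC stood in 1 of the 7 windows, that of Itgav, against 19.7% of all windows, and the NFI letters TTGGCA or TGCCAA stood in 0 of 7, against 12.3%. Neither of the other motifs overlaps the letters of the GC box, and each match describes the sequence only.

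On the mm10 assembly, with GENCODE M21 annotation, all 8 are protein-coding genes. Mertk (ENSMUSG00000014361.5) lies at chr2:128698956-128802894 on the plus strand and Axl (ENSMUSG00000002602.16) at chr7:25757273-25788705 on the minus strand. Megf10 (ENSMUSG00000024593.15) lies at chr18:57133090-57297467 on the plus strand. The integrin genes are Itgav (ENSMUSG00000027087.11), at chr2:83724397-83806916, and Itgb5 (ENSMUSG00000022817.15), at chr16:33829665-33949338, both on the plus strand. The ligand genes are Gas6 (ENSMUSG00000031451.6), at chr8:13465374-13494490 on the minus strand, Pros1 (ENSMUSG00000022912.8), at chr16:62854307-62929346 on the plus strand, and Mfge8 (ENSMUSG00000030605.15), at chr7:79133768-79149060 on the minus strand.

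The libraries held 7241, 1062 and 6456 barcodes with 45716237, 7185668 and 40377042 UMIs, so replicate 2 was much the smallest. After filters on UMIs, genes and mitochondrial RNA and the removal of called doublets, 12115 cells remained, of which 10934 (90.3%) fell into 6 classes by the detection of marker genes that included no member. The classes held 2674 astrocytes, 1898 microglia, 165 border macrophages, 5010 endothelial cells, 857 ependymal cells and 330 oligodendrocyte precursor cells (OPCs). Each class had UMIs of all 10 of its own markers in every library used. Border macrophages, the macrophages of vessels and meninges, numbered 111, 7 and 47, and the 7 cells of replicate 2 were left out of means and tests. Levels are CPM, the UMIs of a gene summed over the cells of a class in a library and scaled to the same total in every profile; a lower level can reflect fewer molecules per cell or fewer cells that carry them. Changes are log2 differences between a class and the mean of the other 5 classes on the log scale after TMM normalization, so 1 class with a high level does not dominate the comparison as it does an average of CPM. Barcodes shared between libraries numbered 3, 12 and 2 for the 3 pairs. Haemoglobin RNA (Hbb-bs), which comes from red blood cells and marks free RNA, was found, at 1500 UMIs per cell, in 9.64 to 19.1% of the cells of a class in replicate 1. The share was 14.3 to 58.8% for replicate 2 and 35.6 to 51.3% for replicate 3. In replicate 2 the low end came from the 7 border macrophages left out of tests and the high end from 17 OPCs.

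**Figure D1:**
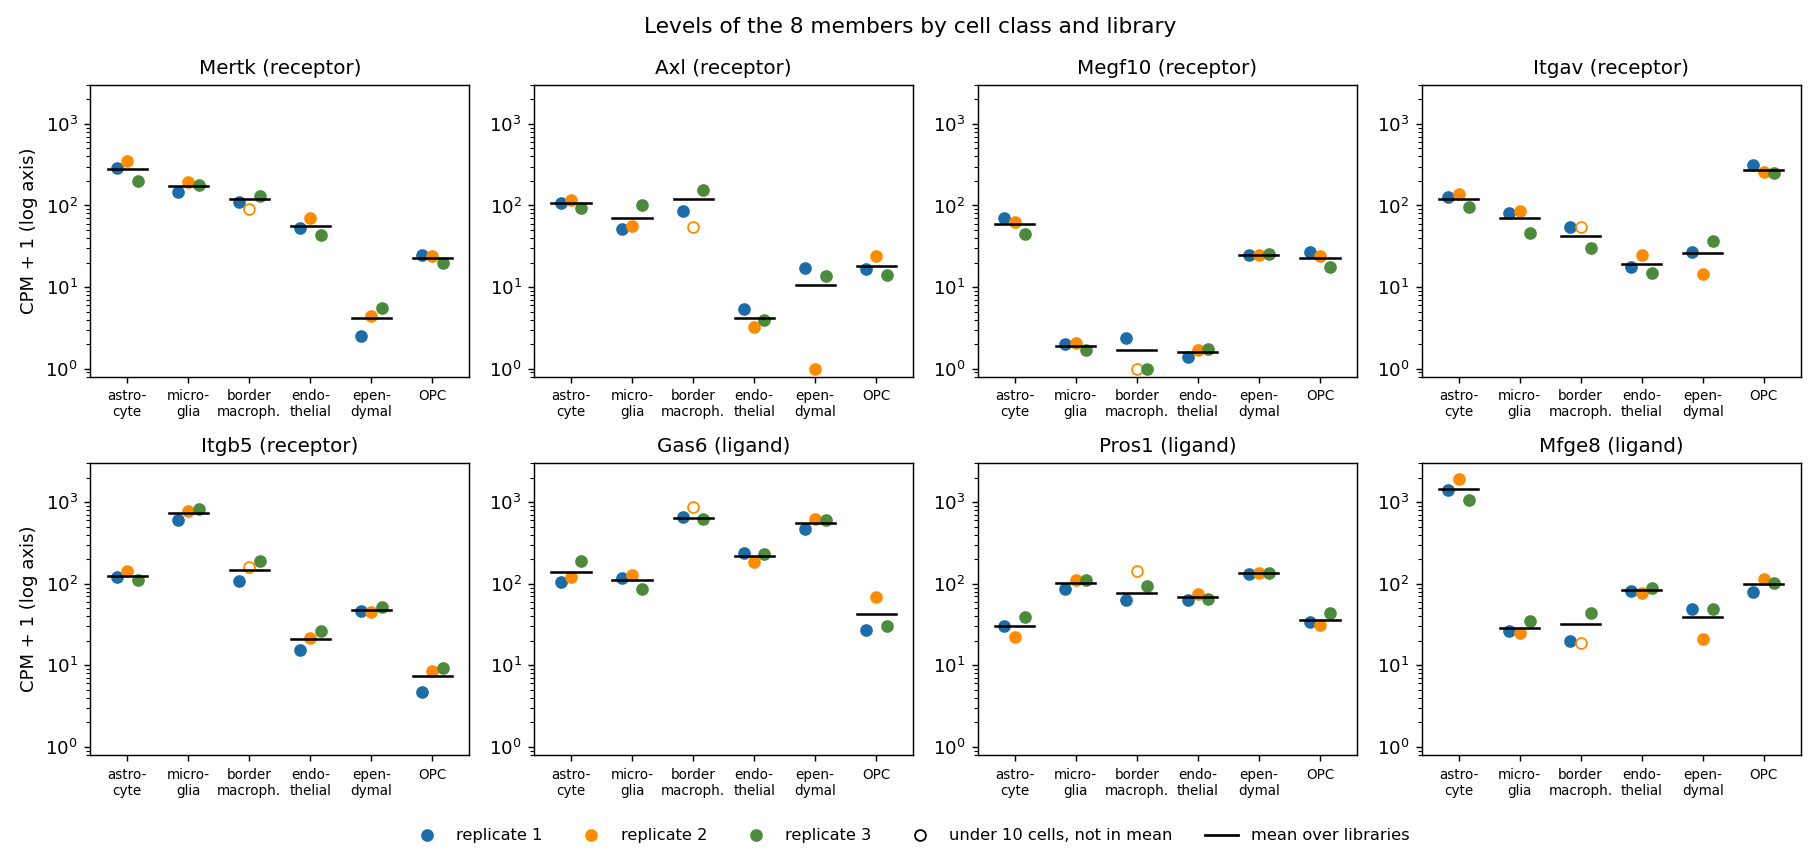
Level of each member as CPM + 1 (log axis) in the 6 classes, with a point for each library, an open point where a library had under 10 cells, and a bar at the mean of the filled points. Mfge8 stood at 1075 to 1925 CPM in astrocytes, Itgb5 at 600.1 to 826 CPM in microglia and Gas6 at 473 to 616 CPM in ependymal cells, each above the ranges of most other classes.

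Mertk, a TAM kinase that triggers engulfment, was highest in astrocytes. Its level was 285, 351 and 199 CPM in replicates 1, 2 and 3 of astrocytes and 146, 194 and 179 CPM in microglia. Border macrophages had 110.0 and 130.2 CPM in replicates 1 and 3. Endothelial cells had 51.3, 70.0 and 42.7 CPM, OPCs 23.9, 22.7 and 18.9 CPM, and ependymal cells 1.53, 3.39 and 4.54 CPM. The ranges of the 6 classes did not overlap, but neither neighbouring pair among the top 3 was told apart by the fit. Astrocytes against border macrophages, which are not neighbours in the order, are not given for Mertk. Astrocytes differed from microglia by a log2 of 0.17 ± 0.18 (SE; adjusted p = 0.439) and microglia from border macrophages by 0.69 ± 0.25 (adjusted p = 0.0747; quasi-likelihood test of edgeR, p-values adjusted by Benjamini-Hochberg over 14146 genes, as for all changes between classes below). Each step further down, to endothelial cells, OPCs and ependymal cells, passed. Against the other 5 classes Mertk was higher by 2.71 ± 0.15 in astrocytes (adjusted p = 7.9e-14), 2.51 ± 0.15 in microglia (adjusted p = 3.4e-13) and 1.68 ± 0.23 in border macrophages (adjusted p = 3.2e-06). It was lower in ependymal cells, with a change of -4.76 ± 0.28 (adjusted p = 3.2e-13) on 3, 1 and 20 Mertk UMIs.

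Axl, the TAM kinase that responds mainly to Gas6, was shared by the same 3 classes. Border macrophages had 84.2 and 154 CPM, astrocytes 106, 116 and 92.7 CPM, and microglia 49.8, 54.3 and 101 CPM. The 3 ranges overlapped, and no neighbouring pair among them was told apart (adjusted p = 0.628 and 0.700). OPCs followed with 15.7, 22.7 and 12.97 CPM, ependymal cells with 16.4, 0 and 12.5 CPM, and endothelial cells with 4.40, 2.27 and 2.91 CPM. The zero of ependymal cells in replicate 2 came from 31 cells and allows up to 10.2 CPM, the level of 3 UMIs; such limits cover counting error only. Endothelial cells were the lowest class, with a log2 change of -3.51 ± 0.27 (adjusted p = 5.5e-11). Mertk in the same cells was not told apart from the mean of the other classes (0.05 ± 0.16, adjusted p = 1).

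Megf10, the scavenger-type receptor of astrocytes, was found in the 3 classes of neuroectodermal origin. Astrocytes had 68.5, 61.7 and 43.5 CPM, ependymal cells 23.5, 23.7 and 24.7 CPM, and OPCs 25.8, 22.7 and 16.5 CPM. Microglia had 0.985, 1.04 and 0.715 CPM, endothelial cells 0.404, 0.682 and 0.746 CPM, and border macrophages 1.36 and 0 CPM. Every value of astrocytes, ependymal cells and OPCs lay above every value of the other 3 classes, though the zero of border macrophages in replicate 3 allows up to 14.5 CPM. Astrocytes stood 1.31 ± 0.22 above ependymal cells (adjusted p = 2.9e-05), while ependymal cells and OPCs were not told apart (0.62 ± 0.29, adjusted p = 0.0817). Against the other 5 classes the log2 change was 4.15 ± 0.20 in astrocytes (adjusted p = 8.8e-15), 2.58 ± 0.25 in ependymal cells (adjusted p = 4.9e-09) and 1.84 ± 0.33 in OPCs (adjusted p = 5.3e-05). Astrocyte markers summed to 22068 to 24906 CPM in astrocytes, 1941 to 2357 CPM in ependymal cells and 863 to 1067 CPM in OPCs; the part of astrocyte RNA in the 2 smaller Megf10 levels was not tested.

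Itgav, the αv subunit that pairs with several β subunits, was highest in OPCs, at 313, 257 and 249 CPM. Astrocytes had 127, 139 and 95.5 CPM, and microglia 79.2, 84.6 and 44.6 CPM. Border macrophages had 52.9 and 28.9 CPM, ependymal cells 26.1, 13.5 and 35.6 CPM, and endothelial cells 16.6, 23.4 and 13.7 CPM. OPCs exceeded astrocytes by 0.72 ± 0.24 on the log2 scale (adjusted p = 0.0181), the next 3 steps were not told apart, and the step between ependymal and endothelial cells passed narrowly (adjusted p = 0.0400). Against the other 5 classes Itgav was higher in OPCs by 1.94 ± 0.19 (adjusted p = 5.7e-09) and lower in endothelial cells, with a change of -2.11 ± 0.22 (adjusted p = 1.1e-08).

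Itgb5, the β5 subunit, showed another order. Microglia had 600.1, 774 and 826 CPM, a change of 4.73 ± 0.13 against the other 5 classes (adjusted p = 2.2e-19). Border macrophages had 106 and 188 CPM, astrocytes 121, 143 and 111 CPM, and ependymal cells 46.0, 44.0 and 51.5 CPM. Endothelial cells had 14.6, 20.7 and 25.4 CPM, and OPCs 3.68, 7.57 and 8.25 CPM. Microglia lay far above every other class, and each step down passed except the one between border macrophages and astrocytes (0.40 ± 0.24, adjusted p = 0.180). Microglia markers summed to 1181 to 1596 CPM in border macrophages and 7059 to 7681 CPM in microglia. The part of microglial RNA in the Itgb5 level of border macrophages was not tested. OPCs, the class with the highest Itgav, had the lowest Itgb5, with a change of -4.77 ± 0.30 (adjusted p = 2.2e-12). Over the 17 class profiles the log2 levels of the subunits of αvβ5 had a Pearson correlation of -0.15, a description over profiles that share libraries.

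Gas6, the ligand that activates all 3 TAM kinases, was highest in border macrophages and ependymal cells. Border macrophages had 656 and 617 CPM, and ependymal cells 473, 616 and 597 CPM. Endothelial cells had 238, 185 and 233 CPM, astrocytes 103, 121 and 191 CPM, microglia 117, 128 and 85.5 CPM, and OPCs 25.8, 68.1 and 29.5 CPM. The top 2 classes were not told apart (0.56 ± 0.29, adjusted p = 0.118), while ependymal cells exceeded endothelial cells by 1.09 ± 0.25 (adjusted p = 5.0e-04) and endothelial cells exceeded astrocytes by 0.76 ± 0.25 (adjusted p = 0.0104). Against the other 5 classes Gas6 was higher by 2.39 ± 0.22 in border macrophages (adjusted p = 4.9e-09) and by 1.72 ± 0.18 in ependymal cells (adjusted p = 1.9e-08), and lower in OPCs, with a change of -3.69 ± 0.31 (adjusted p = 4.3e-10). The lower level in astrocytes, a change of -0.50 ± 0.21, passed narrowly at an adjusted p of 0.0483 and held in 2 of 3 libraries. Without replicate 1 the change was -0.32, and without replicate 2 it was -0.44 (adjusted p = 0.157). The call was also lost with no library term (adjusted p = 0.0668) and with at most 10% mitochondrial UMIs (0.0535). It was lost too in cells of at least 2000 UMIs (0.0598) and with at least 20 cells per profile (0.0616).

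Pros1, which codes for protein S, the plasma anticoagulant that also binds Mertk, had the fewest steps told apart. Ependymal cells had 132, 135 and 136 CPM, microglia 85.0, 112 and 111 CPM, border macrophages 62.5 and 91.6 CPM, and endothelial cells 63.1, 74.1 and 63.7 CPM. OPCs had 33.1, 30.3 and 42.4 CPM and astrocytes 29.7, 21.2 and 37.9 CPM. Of its 5 steps only that between endothelial cells and OPCs passed (1.50 ± 0.22, adjusted p = 2.9e-06). Astrocytes, the class with the highest mean CPM of Mertk, had the lowest mean CPM of Pros1, with a change of -1.26 ± 0.16 (adjusted p = 4.0e-07). For Mertk they were not told apart from microglia (adjusted p = 0.439). In the fit of Pros1, OPCs were lower, at -1.66 ± 0.20 (adjusted p = 2.2e-07), and OPCs and astrocytes were not told apart (adjusted p = 0.272). In microglia Mertk and Pros1 were both higher than in the other classes, Pros1 by 1.28 ± 0.13 (adjusted p = 1.3e-08). Pros1 was higher by 1.05 ± 0.14 in ependymal cells (adjusted p = 6.2e-07). Ependymal cells differed from microglia by -0.19 ± 0.17 in the fit (adjusted p = 0.337), a sign opposite to that of the plain CPM.

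Mfge8, whose product was first known from milk fat globules, had 1389, 1925 and 1075 CPM in astrocytes. None of the other 5 classes passed 114 CPM in any library. OPCs had 77.3, 114 and 103 CPM, endothelial cells 81.4, 76.6 and 87.5 CPM, and ependymal cells 48.0, 20.3 and 47.4 CPM. Pericyte markers summed to 11 to 727 CPM in OPCs and 67.4 to 237 CPM in endothelial cells; pericytes have a high Mfge8 level, and their part in these values was not tested. Border macrophages had 19.0 and 43.4 CPM, and microglia 25.1, 24.0 and 34.2 CPM. Astrocytes exceeded the other 5 classes by 4.88 ± 0.16 (adjusted p = 7.2e-18) and microglia by 5.20 ± 0.27 (adjusted p = 3.8e-14). The ligand and the β5 subunit of its integrin thus peaked in different classes, Mfge8 in astrocytes and Itgb5 in microglia. OPCs and endothelial cells, on the ranks below, were not told apart (-0.45 ± 0.26, adjusted p = 0.144), with a sign opposite to that of the plain CPM. The normalization divides the levels of OPC profiles by factors of 1.42 to 1.52 and those of endothelial profiles by 0.885 to 0.967.

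Over all 8 members, 19 of 40 neighbouring class pairs in the order of levels were told apart, 4 of 5 for Itgb5 and 1 of 5 for Pros1. The order was set by these same levels, and a step counted only where the class of higher rank was higher in the fit. The share of all genes that each pair of classes called covers both directions and any order. It is given as a description, and the count of steps cannot be judged against it. For astrocytes the share was 64.8% against microglia, 42.4% against border macrophages, 63.1% against endothelial cells, 52.8% against ependymal cells and 41.8% against OPCs. For microglia it was 13.5% against border macrophages, 55.1% against endothelial cells, 66.0% against ependymal cells and 57.7% against OPCs. For border macrophages it was 32.2% against endothelial cells, 45.0% against ependymal cells and 40.6% against OPCs, and for endothelial cells 62.8% against ependymal cells and 55.6% against OPCs. Ependymal cells against OPCs called 53.6%. In microglia against border macrophages, the pair with the lowest share (8.69% of genes higher and 4.76% lower), Itgb5 was higher (2.62 ± 0.24, adjusted p = 2.9e-08), Gas6 was lower (-2.28 ± 0.29, adjusted p = 3.7e-06) and 6 members did not pass. In astrocytes against microglia, where 35.3% of all genes were higher and 29.5% lower, Mfge8 and Megf10 were higher, Pros1 and Itgb5 were lower, and Mertk, Axl, Gas6 and Itgav did not pass.

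**Figure D2:**
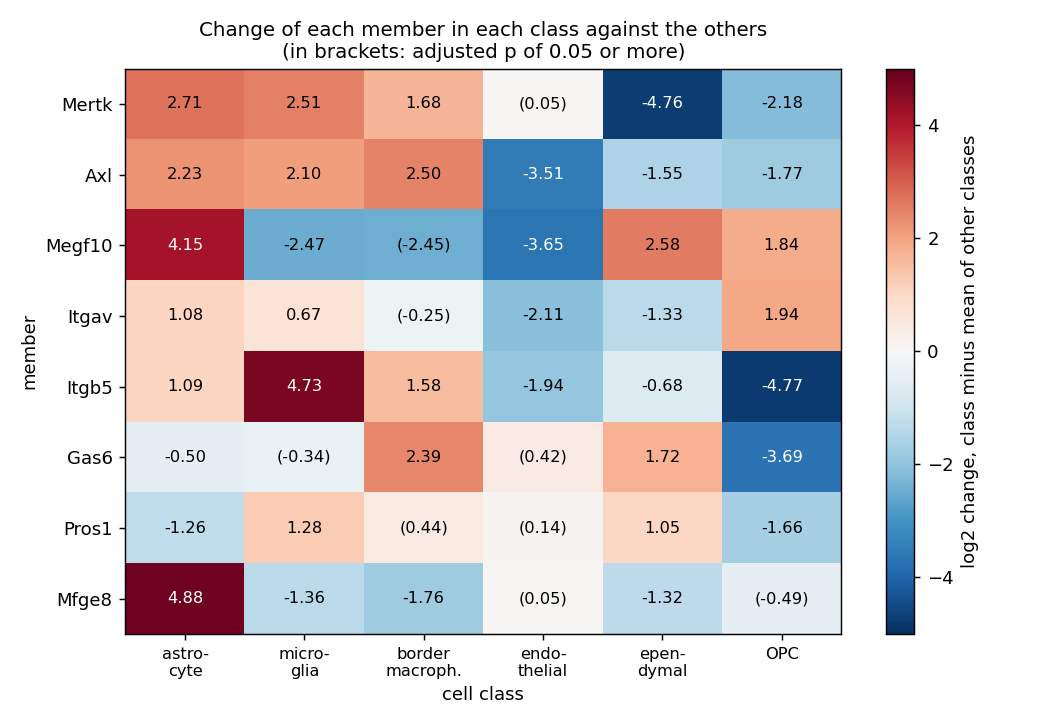
Log2 change of each member (rows) in each class (columns) against the mean of the other 5 classes, red for higher and blue for lower, with values that missed an adjusted p of 0.05 in brackets. The largest positive changes were Mfge8 in astrocytes (4.88), Itgb5 in microglia (4.73) and Megf10 in astrocytes (4.15), and no member was called higher in endothelial cells.

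Read by class, astrocytes had 6 members higher and 2 lower (Gas6 and Pros1), where 53.7% of all genes were called, 31.6% as higher and 22.1% as lower. Their median change over the members was 1.66, against 0.10 over all genes. Microglia had 5 higher (Mertk, Axl, Pros1, Itgav and Itgb5) and 2 lower (Mfge8 and Megf10), with 48.2% of all genes called, 28.1% as higher and 20.2% as lower; the members' median was 0.98, against -0.08. Border macrophages had 4 higher (Mertk, Axl, Gas6 and Itgb5) and 1 lower (Mfge8), with 27.1% of all genes called, 14.9% as higher and 12.2% as lower; the members' median was 1.01, against -0.35. In that class Mfge8 rested on 14 and 9 UMIs, and without replicate 1 its change was -1.21 (adjusted p = 0.192).

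Endothelial cells had 0 members higher and 4 lower (Axl, Megf10, Itgav and Itgb5), with 51.2% of all genes called, 30.6% as higher and 20.6% as lower, and a median of -0.95, against 0.03. Gas6 was near the line there: its change was 0.42 ± 0.19 (adjusted p = 0.0750), and without replicate 3 it was 0.41. It passed as higher without replicate 2 (adjusted p = 0.0249), with no filter on low counts (0.00585) and with at most 10% mitochondrial UMIs (0.0458). It also passed with a stricter marker rule (0.0467), with at least 20 cells per profile (0.0307) and with the 7 border macrophages of replicate 2 kept (0.0490). Ependymal cells had 3 higher (Gas6, Pros1 and Megf10) and 5 lower, with 56.5% of all genes called, 33.1% as higher and 23.5% as lower, and a median of -1.0, against 0.05. OPCs had 2 higher (Megf10 and Itgav) and 5 lower, with 49.2% of all genes called, 26.5% as higher and 22.7% as lower, and a median of -1.71, against -0.03. Shares of 7 or 8 members of 8 thus stood beside backgrounds near 50% of all genes in astrocytes, microglia, ependymal cells and OPCs, and 4 of 8 beside 51.2% in endothelial cells.

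Some calls were lost when 1 library was left out. Megf10, with 1 to 10 UMIs per library in these classes, was lower in microglia (-2.47 ± 0.62, adjusted p = 0.00172) and in endothelial cells (-3.65 ± 0.70, adjusted p = 1.1e-04), yet without replicate 1 the adjusted p was 1 in both classes. Itgav was higher in microglia by 0.67 ± 0.19 (adjusted p = 0.00463), and its adjusted p was 0.0734 without replicate 1. Itgb5 was lower in ependymal cells (-0.68 ± 0.19, adjusted p = 0.00315), with an adjusted p of 0.0525 without replicate 3.

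Receptor and ligand genes were distributed differently over the classes. The summed level of the 5 receptor genes was 876, 1108 and 1152 CPM in microglia and 707, 809 and 542 CPM in astrocytes. Border macrophages had 354 and 501 CPM in replicates 1 and 3. OPCs had 382, 333 and 305 CPM, ependymal cells 113, 84.7 and 129 CPM, and endothelial cells 87.3, 117 and 85.5 CPM. The summed level of the 3 ligand genes was 1522, 2067 and 1304 CPM in astrocytes, 737 and 752 CPM in border macrophages, 654, 772 and 780.4 CPM in ependymal cells and 383, 336 and 384 CPM in endothelial cells. Microglia had 227, 264 and 231 CPM of ligand genes and OPCs 136, 212 and 174 CPM. Microglia thus had the highest receptor sum and astrocytes the highest ligand sum, border macrophages and ependymal cells had overlapping ligand sums, and border macrophages exceeded ependymal cells in the receptor sum; Itgb5 made up most of the microglial sum and Mfge8 most of the astrocytic one.

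**Figure D3:**
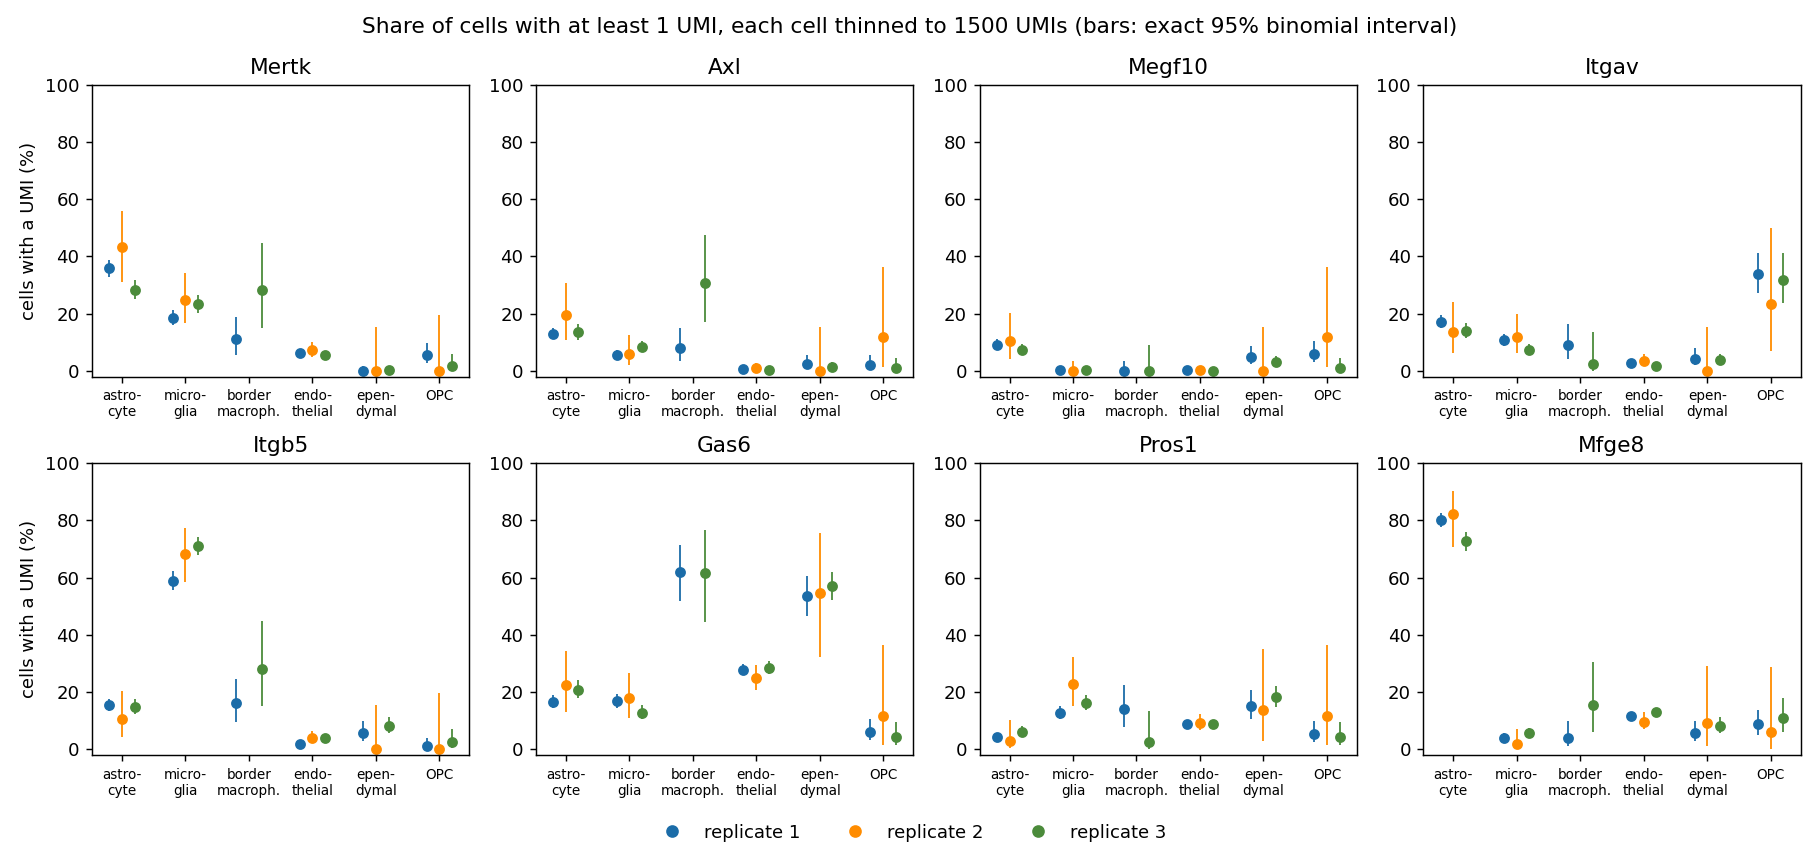
Share of cells (%) with at least 1 UMI of each member after every cell was thinned to 1500 UMIs, by class and library, with exact 95% binomial intervals that cover counting error only. Mfge8 was found in 72.7 to 82.1% of astrocytes and Itgb5 in 58.9 to 71.1% of microglia, and intervals are wide for the small profiles of replicate 2 and of border macrophages.

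At an equal depth of 1500 UMIs, which left out shallower cells (513, 55 and 262 astrocytes), detection in single cells was compared between classes. Mfge8 was found in 80.3, 82.1 and 72.7% of astrocytes, against 4.07, 1.98 and 5.66% of microglia. Itgb5 was found in 58.9, 68.3 and 71.1% of microglia, against 1.96, 3.99 and 3.97% of endothelial cells. Gas6 was found in 62.0 and 61.5% of border macrophages, 53.6, 54.5 and 57.1% of ependymal cells and 27.8, 24.9 and 28.6% of endothelial cells. Mertk was found in 35.8, 43.3 and 28.4% of astrocytes and 18.5, 24.8 and 23.3% of microglia, against 0, 0 and 0.472% of ependymal cells, with exact upper 95% bounds of 1.73, 15.4 and 1.69%. Without thinning, Mertk was found in 51.1, 54.9 and 49.1% of astrocytes and 54.7, 63.0 and 62.5% of microglia, whose median depths were 2891, 1645.5 and 3530 UMIs in astrocytes and 7972, 6592 and 6845 UMIs in microglia.

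Megf10 and Axl were found in few astrocytes. Megf10 was found in 9.18, 10.4 and 7.24% of astrocytes, against 0.166, 0.235 and 0.115% of endothelial cells. Axl was found in 143 of 1100 astrocytes in replicate 1 (13%), 19.4 and 13.4% of astrocytes in replicates 2 and 3, and 5.57, 5.94 and 8.35% of microglia, against 0.583, 1.17 and 0.403% of endothelial cells. In border macrophages Axl was found in 8 of 100 cells of replicate 1 and 12 of 39 cells of replicate 3 (30.8%). UMIs of both Mertk and Axl were in 49, 6 and 21 astrocytes, or 4.45, 8.96 and 3.10% of them.

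At least 1 receptor gene was detected in 72.4 to 80.3% of microglia, 58.3 to 70.1% of astrocytes and 39.0 to 66.7% of border macrophages, against 11.2 to 15.7% of endothelial cells. At least 1 ligand gene was detected in 80.6 to 85.1% of astrocytes, 66.7 to 68.0% of border macrophages and 63.5 to 68.2% of ependymal cells, against 16.4 to 18.5% of OPCs. Cells with both a receptor and a ligand gene made up 49.3 to 61.2% of astrocytes, 25 to 46.2% of border macrophages, 21.8 to 32.7% of microglia and 4.58 to 6.34% of endothelial cells.

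Within astrocytes, cells were split at the median of their Gfap UMIs in each library, Gfap being the intermediate filament gene that rises in reactive astrocytes. Mertk was lower in Gfap-high astrocytes, at 226, 253 and 147 CPM, against 332, 420.3 and 261 CPM in Gfap-low astrocytes. The change was -0.67 ± 0.10 (adjusted p = 1.1e-06; edgeR's quasi-likelihood test over 10921 genes) and the same way in 3 of 3 libraries. Mfge8 was lower too, at 1174, 1799 and 760 CPM, against 1593, 2041 and 1418 CPM, a change of -0.52 ± 0.09 (adjusted p = 6.9e-05). Pros1 was higher by 0.67 ± 0.18 (adjusted p = 0.0116) with 33.5, 14.9 and 49.4 CPM in Gfap-high astrocytes, against 26.1, 28.0 and 24.5 CPM, higher in 2 of 3 libraries.

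The other 5 members did not pass in that comparison, so 3 of 8 were called, against 5.84% of all genes. For Megf10 the change was -0.04 ± 0.14 (adjusted p = 0.926) and for Axl 0.16 ± 0.11 (adjusted p = 0.504). With no term for the library none of these 3 calls held (adjusted p = 0.850 for Mertk and 0.976 for Mfge8 and Pros1); the cause was not tested. Without replicate 3, Mertk alone passed, while Mfge8 had an adjusted p of 0.407 and Pros1 of 0.859. The adjusted p of Pros1 was 0.153 without replicate 1, 0.0943 with at most 10% mitochondrial UMIs and 0.0989 with cells thinned to 1000 UMIs. Gfap-high cells were deeper, with median depths of 6141.5, 7085 and 10898 UMIs against 5053.5, 5322 and 7297, and the part of depth in the result was not tested.

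Within the endothelium, arterial cells had more Mertk than capillary cells, 107, 94.7 and 75.8 CPM against 39.5, 66.1 and 38.0 CPM (1.15 ± 0.13, adjusted p = 1.1e-06; edgeR's quasi-likelihood test over 9468 genes). Itgb5 was higher with 32.1, 31.6 and 44.0 CPM in arterial cells, against 11.9, 14.96 and 18.7 CPM in capillary cells (1.34 ± 0.16, adjusted p = 2.5e-06). Gas6 was also higher, with 386, 264 and 321 CPM in arterial cells, against 207, 170.1 and 213 CPM in capillary cells (0.75 ± 0.11, adjusted p = 2.1e-05). For each of the 3 the arterial and capillary ranges did not overlap, and 17.0% of all genes were called. Pros1, Mfge8 and Itgav did not pass, and Axl and Megf10 were too low to be tested.

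Pericyte markers summed to 694, 14.3 and 137 CPM in arterial cells and 200.2, 113 and 47.9 CPM in capillary cells, and smooth muscle markers to 375, 8.60 and 137 CPM against 56.3, 8.10 and 13.8 CPM. Their part in the arterial values was not tested. In venous against capillary cells, where 9.23% of all genes were called, Itgb5 was lower with 4.06, 11.5 and 11.5 CPM, against 11.9, 14.96 and 18.7 CPM (-1.01 ± 0.31, adjusted p = 0.0467). That call was lost without replicate 1 (adjusted p = 0.599), without replicate 3 (0.153), with no term for the library (0.287) and with DESeq2 (0.150).

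**Figure D4:**
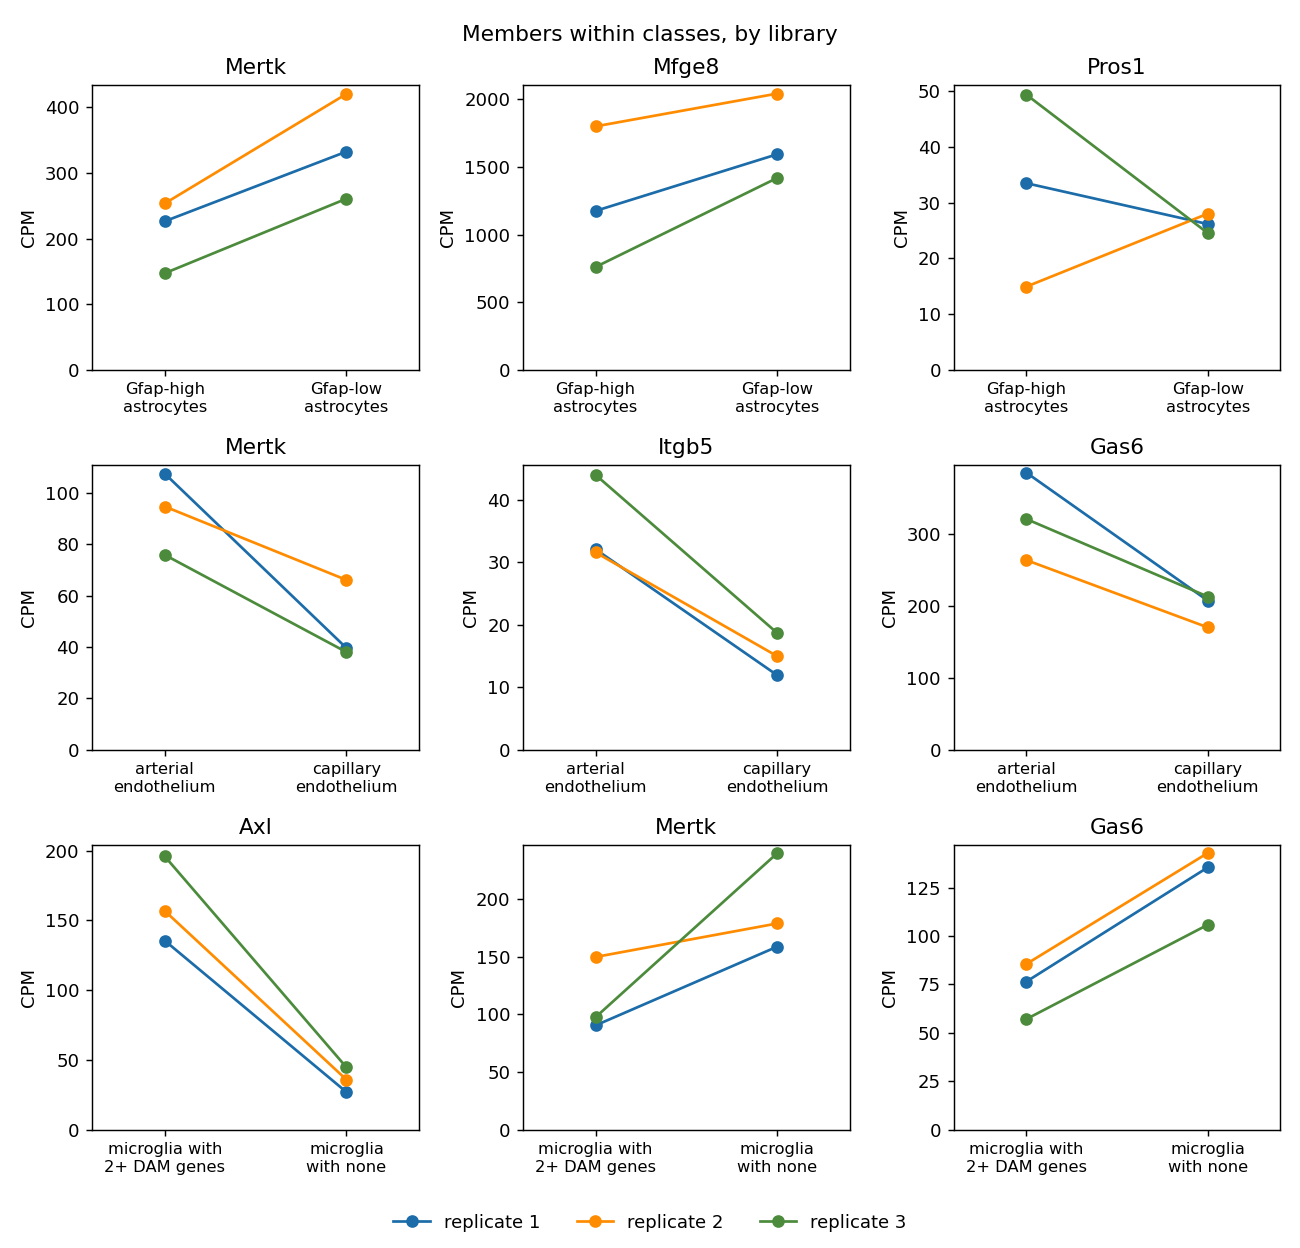
Level (CPM) of 3 members in each of 3 pairs of subsets, with a line for each library (replicate 2 had 7 microglia with disease-associated genes): Gfap-high and Gfap-low astrocytes, arterial and capillary endothelial cells, and microglia with at least 2 disease-associated genes and with none. Mertk was lower in Gfap-high than in Gfap-low astrocytes and higher in arterial than in capillary cells in 3 of 3 libraries, and Axl was 135 to 196 CPM in microglia with disease-associated genes, against 26.9 to 44.6 CPM in those with none.

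Within microglia, cells with at least 2 of 6 disease-associated genes (Itgax, Lpl, Cst7, Gpnmb, Csf1 and Ch25h) were set beside cells with none. This list was shortened after the data were seen, because the longer list left 3, 2 and 23 cells without any such gene, so its values are a description with no test. The subsets held 82, 7 and 125 cells with the genes and 404, 56 and 358 without, at median depths of 10122.5, 18674 and 12930 UMIs against 7972.5, 5929 and 6614 UMIs; the part of depth in these values was not tested. Axl had 135, 157 and 196 CPM in cells with the genes, against 26.9, 35.7 and 44.6 CPM in cells with none. Mertk went the other way in each library, with 90.3, 149.6 and 97.4 CPM against 159, 179 and 239.6 CPM. Gas6 had 76.4, 85.5 and 57.0 CPM against 136, 143 and 106 CPM, and Itgb5 498, 762 and 712 CPM against 619, 797 and 855 CPM. Pros1 had no common direction, with 92.6, 107 and 88.1 CPM against 83.4, 132 and 128 CPM.

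When cells were thinned to 1000 UMIs, the longer list could be fitted in replicates 1 and 3, the libraries with at least 10 cells in each subset. Cells with at least 2 of the genes numbered 808 and 652 in that fit, and cells with none 25 and 63. It thus set most of the microglia against a small rest, and the part of depth was not tested. There Axl was higher by 1.82 ± 0.37 in microglia with the genes (adjusted p = 4.3e-05; edgeR's quasi-likelihood test), Mertk had a change of -0.54 ± 0.22 (adjusted p = 0.134) and Gas6 of -0.36 ± 0.25 (adjusted p = 0.504). Pros1 had a change of -0.51 ± 0.25 (adjusted p = 0.246), Itgb5 of 0.27 ± 0.20 (adjusted p = 0.539), Itgav of 0.40 ± 0.33 (adjusted p = 0.607) and Mfge8 of 0.41 ± 0.44 (adjusted p = 0.714). The signs for Itgb5, Itgav and Mfge8 were opposite to those of the plain values of replicates 1 and 3 with the shorter list. Itgav had 56.7 and 40.9 CPM there in cells with the genes, against 84.0 and 47.2 CPM in cells with none. Mfge8 had 8.10 and 30.0 CPM, against 29.7 and 35.7 CPM.

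The genes whose log2(CPM + 1) profile over the 17 class profiles was most like that of a member were named by Pearson's r, which describes profiles that share libraries and classes. For Mertk they were Cables1, Dgkz and Tmem189 (r = 0.90, 0.88 and 0.86), and for Axl AI413582, Abcd2 and Speg (0.92, 0.89 and 0.89). Megf10 had the closest, Arhgef19, Kcnj16 and Rnf182 (0.99 each). For Mfge8 they were Ahcyl1, Grin2c and Atp13a4 (0.95 each), for Itgav Kcnip3, Rufy3 and Unc13a (0.95, 0.93 and 0.92), and for Itgb5 Efhd2, Bmp2k and Lair1 (0.96, 0.94 and 0.94). For Gas6 they were Arhgap18, Trappc6a and Ifitm3 (0.92, 0.91 and 0.90), and for Pros1 Gcnt1, Coq10b and Rassf4 (0.93, 0.90 and 0.89). Among the members, Mertk was most like Axl (0.68), Gas6 most like Pros1 (0.60) and Mfge8 most like Megf10 (0.63), while Mfge8 and Pros1 ran opposite (-0.78), as did Gas6 and Itgav (-0.78).

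Other engulfment receptors, of which 22 of 25 were tested, were higher in microglia in 13 cases and lower in 2, with a median change of 1.84 against -0.08 over all genes, and in border macrophages they were higher in 11 and lower in 3, with a median of 1.67 against -0.35. In astrocytes 5 were higher and 10 lower, in endothelial cells 7 and 7, in ependymal cells 4 and 11, and in OPCs 6 and 9. The share of all genes called higher and lower, to be set beside the counts of each list, was 31.6 and 22.1% in astrocytes, 28.1 and 20.2% in microglia, 14.9 and 12.2% in border macrophages, 30.6 and 20.6% in endothelial cells, 33.1 and 23.5% in ependymal cells and 26.5 and 22.7% in OPCs. Itgam, the α chain of complement receptor 3, had 472 ± 70.2 CPM in microglia, against 17.7 CPM on average in the other classes (6.83 ± 0.18, adjusted p = 1.6e-19), and Trem2, a lipid receptor, had 2438 ± 337 CPM, against 232 CPM. Cd36, a scavenger receptor, had 258 ± 112 CPM in border macrophages (n = 2), against 1.13 CPM. Adgrb3 and Adgrb1, of the BAI adhesion receptors, had 73.0 ± 18.0 and 76.8 ± 9.87 CPM in astrocytes, against 21.4 and 34.8 CPM on average in the other classes, among which OPCs had 81.9 ± 18.1 and 139 ± 31.5 CPM. Megf11, the closest relative of Megf10, had 167 ± 7.60 CPM in OPCs, against 0.442 CPM in the other classes (8.71 ± 0.30, adjusted p = 1.2e-16). Tyro3, the remaining TAM kinase, had 8.22 ± 3.81 CPM in astrocytes, 15.9 ± 19.5 CPM in OPCs and 5.89 ± 1.56 CPM in ependymal cells, and 0 UMIs in border macrophages, which allows up to 4.07 and 14.5 CPM in replicates 1 and 3; it is no member and was named after its values were seen, as were the β subunits in the next sentence. Itgb8, another partner of αv, had 196 ± 57.5 CPM in OPCs and 191 ± 23.4 CPM in astrocytes, against 2.50 ± 2.46 CPM in microglia, and Itgb1 had 285 ± 47.9 CPM in endothelial cells, against 120.2 CPM in the other classes.

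Adaptors and signalling genes of engulfment (20 tested) were higher in 13 and lower in 5 cases in microglia, with a median of 1.10 against -0.08 over all genes, of which 28.1% were higher and 20.2% lower. In ependymal cells 2 were higher and 15 lower, with a median of -0.96 against 0.05 over all genes, of which 33.1% were higher and 23.5% lower. Counts of higher and lower were 7 and 8 in astrocytes, 8 and 5 in border macrophages, 10 and 7 in endothelial cells and 7 and 9 in OPCs. The list's median was 0.10 in astrocytes, against 0.10 over all genes, 0.41 in border macrophages, against -0.35, 0.32 in endothelial cells, against 0.03, and -0.12 in OPCs, against -0.03. Vav1, an activator of Rac, had 116 ± 8.12 CPM in microglia, against 9.58 CPM on average in the other classes. Tyrobp, the signalling partner of Trem2, had 3737 ± 778 CPM, against 673 CPM. Among the other classes, border macrophages had 45.8 ± 3.37 CPM of Vav1 and 3207 ± 158 CPM of Tyrobp, and both genes were called higher there. Gulp1, an adaptor of the Megf10 and Lrp1 type of receptor, had 37.0 ± 8.10 CPM in endothelial cells, against 8.52 CPM. Elmo1, part of the Rac exchange complex with Dock1, was lower in astrocytes, at 2.29 ± 0.42 CPM, against 71.1 CPM.

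Of 17 other bridging proteins and integrin ligands, 16 were tested. In microglia 7 were higher and 1 lower, in border macrophages 7 and 2, in ependymal cells 8 and 4, in astrocytes 5 and 4, in endothelial cells 2 and 6 and in OPCs 2 and 10. C1qb and C1qc, complement proteins that tag material for removal, had 7452 ± 1775 and 4969 ± 1101 CPM in microglia, against 1164 and 929 CPM on average in the other classes, among which border macrophages had 5569 ± 218 and 4497 ± 70.1 CPM. Clu, an extracellular chaperone, had 8299 ± 1576 CPM in astrocytes, against 962 CPM. Thbs1 and Anxa1 had 255 ± 102 and 291 ± 71.6 CPM in ependymal cells, against 2.40 and 2.48 CPM. Edil3, a relative of Mfge8 that also binds αv integrins, had 110 ± 37.6 CPM in OPCs, against 0.302 CPM (8.26 ± 0.38, adjusted p = 2.2e-14).

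Of 12 genes of phosphatidylserine exposure and don't-eat-me signals, 9 were higher and 1 was lower in endothelial cells, with a median of 1.05 against 0.03 over all genes, of which 30.6% were higher and 20.6% lower. In microglia 5 were higher and 4 lower, in astrocytes 3 and 3, in border macrophages 2 and 1, in ependymal cells 3 and 6 and in OPCs 2 and 7. Sirpa, the receptor of Cd47, had 516 ± 76.5 CPM in microglia, against 133 CPM on average in the other classes. Among these, border macrophages had 298 ± 49.0 CPM and astrocytes 233 ± 28.4 CPM, and Sirpa was called higher in both. It was lower in endothelial cells, at 6.89 ± 1.80 CPM, against 235 CPM. Of 7 genes that carboxylate TAM ligands, shed the receptors or act in their feedback, 4 were higher and 0 lower in microglia, where Adam17, the sheddase of Mertk and Axl, had 82.3 ± 7.25 CPM, against 30.2 CPM. In astrocytes 1 was higher and 5 were lower, Socs3, a feedback inhibitor, among them with 27.4 ± 8.38 CPM, against 368 CPM. Counts of higher and lower were 1 and 1 in border macrophages, 2 and 1 in endothelial cells, 2 and 3 in ependymal cells and 1 and 4 in OPCs. None of the list medians given moved when genes with 0 UMIs in a class were set at the bound of 3 UMIs.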

How the data were processed

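UMI counts per gene and cell were deposited as 1 text table per library; per the submitters' processing notes they were made with Cell Ranger on mm10, whose version was not given in the sources used here. Cells with at least 500 UMIs, 300 genes and at most 20% mitochondrial UMIs were kept, and doublets were called with Scrublet in scanpy 1.11.5 at an expected rate of 0.06 and removed. A cell entered a class when at least 3 of its markers were detected and at least 2 more than of any other of 16 lists. The members and lists were chosen with earlier results of these data known. Counts were summed per library and class (at least 10 cells, 17 profiles) and fitted in edgeR 4.0.16 (TMM, filterByExpr, library as a term, quasi-likelihood test, Benjamini-Hochberg over 14146 genes, threshold 0.05). Classes of a library come from the same suspension, so the library was kept as a block. Subsets were set on cells thinned to 2000 UMIs and fitted on their full counts. Named genes are the 8 members, the 3 genes most like each (markers and predicted models left out) and, from each list and class, up to 2 genes with the largest change that passed, had 20 CPM on 1 side and kept 1 sign in every library; a part of these is given. Genes outside that rule are said to be so. On simulated data the class fit recovered 33% of 2-fold and 98% of 4-fold changes in astrocytes, with 9 unchanged genes of 14146 called. The simulation used a fixed dispersion, the same mean in every class for unchanged genes and no library effect. Only genes above 20 CPM were changed. Its figures therefore do not give the power or error of the fit to the real counts. Depth per library ran from 7185668 to 45716237 UMIs, and replicate 2 limits the precision for OPCs (17 cells) and ependymal cells (31). Alternatives were DESeq2 1.42.0, RLE size factors, no filter on low counts, no library term, each library left out, and other limits for cells and markers. Of the 10 planned disease-associated genes, Clec7a was not analysed here.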

Additional observations from a re-analysis of the deposited data

How the results depend on the processing

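Counts of members called, in each class against the others, stayed within 1.5 times under every alternative run; leaving out 1 library gave 7 to 8 for astrocytes, 5 to 7 for microglia, 4 to 5 for border macrophages, 3 to 5 for endothelial cells, 7 to 8 for ependymal cells and 7 to 8 for OPCs, and 16 to 21 of 40 neighbouring pairs. With a library left out, border macrophages can have 1 profile, which is then assumed to vary like the others. Arterial calls ranged from 3 to 4. The 3 calls between Gfap-high and Gfap-low astrocytes became 0 with no replicate block and 1 to 3 with a library left out. Pros1 was also lost there with at most 10% mitochondrial UMIs and with cells thinned to 1000 UMIs. The 1 venous call became 0 with DESeq2, 0 with no replicate block and 0 to 1 with a library left out.

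Changes that had not passed reversed sign in 19 cases, and the cause was not tested. In endothelial cells Mertk was -0.13 with RLE size factors, -0.12 with DESeq2 and -0.044 without replicate 1 (up to 0.36 with a library left out); Pros1 was -0.033 with RLE and -0.042 with DESeq2; Mfge8 was -0.12 with RLE, -0.12 with DESeq2 and -0.10 to 0.18 with a library left out. Itgav in border macrophages was -0.81 to 0.021 with a library left out. Between Gfap-high and Gfap-low astrocytes, at most 10% mitochondrial UMIs gave -0.16 for Gas6 and 0.034 for Itgb5, and thinning to 1000 UMIs gave 0.013 for Itgav. Arterial Pros1 was -0.064 to 0.13 with a library left out. Venous Mertk was -0.060 with no replicate block, -0.31 at 10% mitochondrial UMIs and -0.066 thinned to 1000 UMIs; venous Mfge8 was -0.051 at 10% and -0.13 to 0.23 with a library left out, and venous Itgav -0.15 thinned to 1000 UMIs.

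DESeq2 shifted the median change of all genes by 0.24 in border macrophages, -0.22 in endothelial cells, -0.20 in microglia and -0.11 in astrocytes, and RLE by -0.16 in endothelial cells and 0.12 in OPCs. Under DESeq2 the genes called higher and lower were 2282 and 1119 in border macrophages (2109 and 1725 in the main fit), 3438 and 5158 in endothelial cells (4331 and 2911), 3564 and 4666 in microglia (3969 and 2855) and 55 and 33 in Gfap-high astrocytes (325 and 313).

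Replicate 2 and the border macrophages limit what depth can show. Megf10 in microglia and endothelial cells was at 1 to 10 UMIs per library, where differences are near the limit that a count of 0 allows. The planned test of microglia with disease-associated genes at 2000 UMIs was not run because only replicate 3 held 10 cells in both subsets.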

Other observations

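Cells of the vessel wall outside the 6 classes carried high levels of some members; these classes entered no test. In pericytes (76, 18 and 83 cells in replicates 1, 2 and 3) Mfge8 had 2066, 1621 and 1903 CPM, Axl 201, 221 and 197 CPM and Itgb5 162, 243 and 222 CPM, while Megf10 had 0 UMIs in each library. Mertk had 53.9, 55.1 and 9.86 CPM in pericytes. Smooth muscle cells of replicate 1 (31 cells) had 1355 CPM of Mfge8 and 121 CPM of Axl. Fibroblasts (24 cells in replicate 1 and 15 in replicate 3) had 199 and 171 CPM of Pros1 and 108 and 202 CPM of Axl. In lymphocytes (17 and 15 cells) Mertk and Pros1 had 0 UMIs in both libraries.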
